A study of Homo sapiens with 6 samples.

Results

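The genes described here are 10 members of the mitophagy machinery, chosen by gene symbol: BNIP3, BNIP3L, FUNDC1, PINK1, SQSTM1, OPTN, CALCOCO2, MAP1LC3B, GABARAPL1 and PHB2. All 10 were listed among the 17631 genes of the deposited tables, and all 10 passed the filter on low values together with 12582 genes in all. RNA came from MDA-MB-231, a cell line of human breast cancer without oestrogen, progesterone or HER2 receptors, in 3 libraries from vehicle-treated cells and 3 libraries from cells exposed to 30 µM PDBAG1. Both groups were collected after 24 h in the same medium with serum. PDBAG1 is a synthetic peptide that joins a cell-penetrating sequence to a fragment of the metabolic enzyme GPD1. Only 1 cell line was sequenced, nothing in the labels states whether the libraries of a group came from separate cultures, and p-values therefore measure the spread between these libraries, which may be technical.

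Mitophagy is the removal of damaged or surplus mitochondria by autophagy. One route runs through receptors that sit in the outer mitochondrial membrane and bind ATG8 proteins on the growing autophagosome directly, and in cancer cells the genes of some of these receptors are known targets of hypoxia-inducible factors. The other route begins with the kinase PINK1, which gathers on mitochondria that cannot import it and phosphorylates ubiquitin there. Soluble adaptors such as SQSTM1, OPTN and CALCOCO2 then link ubiquitin on the mitochondrion to ATG8 proteins. The study was concerned with the mitochondria and the hypoxia response of treated cells, and the comparison made here asks how the transcripts of both routes differed between PDBAG1 and vehicle.

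The deposited values are TPM (a transcript level corrected for transcript length and brought to a common total per library), so levels can be compared between genes, whereas sequencing depth is unknown. The libraries held 12392 to 12611 genes at 1 TPM or more. The standard deviation of log2 differences between 2 libraries was 0.142 to 0.175 within a group and 0.278 to 0.296 between groups, and no library stood apart. Of the markers of the line, VIM, CD44, AXL and CAV1 summed to 5432 to 5616 TPM with vehicle and 7086 to 7199 TPM with PDBAG1, whereas ESR1, PGR, ERBB2, CDH1 and EPCAM summed to 30.9 to 35.0 TPM over both groups. PTPRC and PECAM1, markers of leukocytes and endothelium, summed to 4.83 to 5.19 TPM with vehicle and 8.84 to 10.4 TPM with PDBAG1, a difference carried by PECAM1. The larger sum of the line markers with PDBAG1 came from VIM and CD44, which rose (log2 fold changes 0.46 and 0.59), while AXL and CAV1 (-0.26 and -0.30) and the keratin KRT18 (-0.21) fell. The part of these markers in the results below was not tested. In bulk RNA, fewer cells that express a gene and less RNA per cell cannot be told apart.

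Most of the 10 genes were higher with PDBAG1, and BNIP3 and BNIP3L stood at the top. On the log2(TPM + 1) scale, 8 genes rose and 1 fell (limma, p adjusted across the whole table and under 0.05), and FUNDC1 did not pass. In the same comparison 37.6% of all genes tested passed, 21.7% as higher and 15.9% as lower with PDBAG1. Of the genes that passed, 57.8% were higher, a share that was 47.2% with median-of-ratios scaling and 46.7% with quantile normalization, under which the direction and call of every one of the 10 genes stayed as given. With the study's limit of a 1.5-fold change added, BNIP3, BNIP3L and GABARAPL1 passed as higher and none as lower, against 2.86% higher and 0.477% lower (3.34% in all) of all genes tested. The 3 PDBAG1 values lay entirely on one side of the 3 vehicle values in 9 of the 10 genes, 8 of them higher and PHB2 lower, and over all genes this share was 47.4% (27.2% higher and 20.2% lower). The median log2 fold change of the 10 genes was 0.41, and that of all genes tested was 0.03. With 3 libraries against 3, the exact two-sided permutation test of a single gene cannot go below 0.1. Any gene without overlap reaches that value, so for the 9 genes it adds nothing to the separation.

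**Figure D1:**
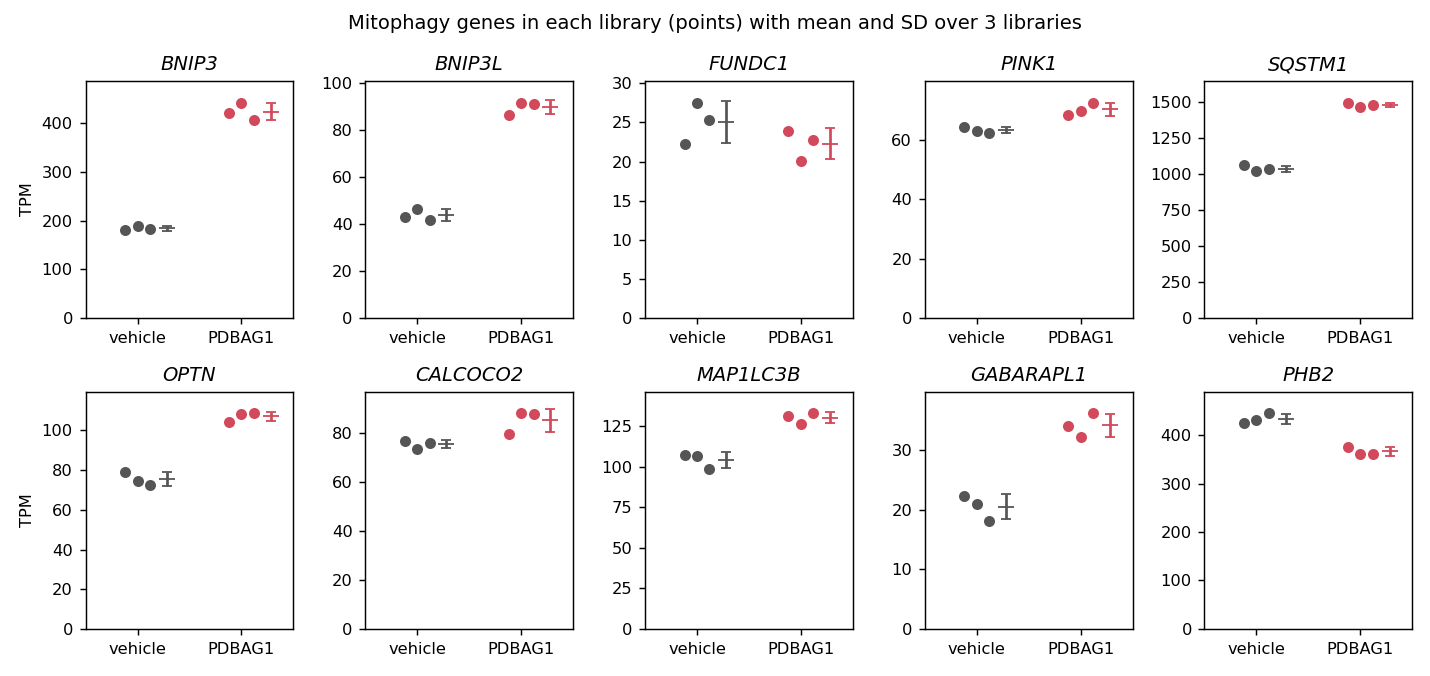
TPM of each of the 10 genes in every library, with vehicle in grey and PDBAG1 in red, each axis starting at 0, points for libraries and a bar for the mean and SD of 3 libraries. The groups are apart for every gene but FUNDC1, where they are apart for 47.4% of all genes tested. PHB2 is the only gene of the 10 whose PDBAG1 libraries all lie lower.

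BNIP3 (chromosome 10, 131967684 to 131981967, GRCh38, GENCODE v44) encodes an outer-membrane receptor that belongs to the BH3-only relatives of BCL2 and binds LC3 proteins. It was at 179.7, 189 and 183 TPM in the vehicle libraries and at 419.8, 442 and 407 TPM in the PDBAG1 libraries. The lowest PDBAG1 library lay 218 TPM above the highest vehicle library. The mean rose from 184 ± 4.83 to 423 ± 17.6 TPM (SD, n = 3 each), 2.30-fold, with a log2 fold change of 1.20 (SE 0.04, adjusted p = 2.5e-10 by limma). Ordered by log2 fold change, BNIP3 was number 42 of the 12582 genes tested. BNIP3L, also called NIX (chromosome 8, 26383054 to 26505636), encodes a closely related receptor that is best known for clearing mitochondria from maturing red blood cells. Its vehicle libraries were at 43.1, 46.6 and 41.5 TPM and its PDBAG1 libraries at 86.2, 91.55 and 91.0 TPM. The groups were again far apart, and the mean rose from 43.8 ± 2.57 to 89.6 ± 2.93 TPM (SD, n = 3 each), 2.05-fold (log2 fold change 1.02, SE 0.05, adjusted p = 8.91e-09 by limma). BNIP3 transcripts outnumbered those of BNIP3L in every library. Their ratio was 4.06 to 4.40 with vehicle and 4.47 to 4.87 with PDBAG1, ranges that did not overlap but lay close together.

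FUNDC1 (chromosome X, 44523639 to 44542859), the remaining receptor of this group, encodes an outer-membrane protein whose binding to LC3 is controlled by phosphorylation. It did not follow BNIP3 and BNIP3L. Its values were 22.2, 27.5 and 25.3 TPM with vehicle and 24.0, 20.1 and 22.7 TPM with PDBAG1. The groups overlapped, and the largest spread of any of the 10 genes was found here, with a coefficient of variation of 10.7% in the vehicle group. The log2 fold change was -0.16 (SE 0.08, 95% interval -0.34 to 0.02, adjusted p = 0.15 by limma). Leaving out vehicle replicate 1, the lowest vehicle library, gave -0.24 with a adjusted p of 0.0315 by limma, and FUNDC1 did not pass in any of the 5 other fits that left out 1 library. The ratio of BNIP3 to FUNDC1 moved from 6.87 to 8.09 in the vehicle libraries to 17.5 to 22.0 in the PDBAG1 libraries. Over BNIP3, BNIP3L and FUNDC1 together, the summed level was 245 to 263 TPM with vehicle and 521 to 553 TPM with PDBAG1. Of that sum, FUNDC1 held 22.2 to 27.5 TPM with vehicle and 20.1 to 24.0 TPM with PDBAG1, and BNIP3 and BNIP3L held the rest.

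Promoters are shown because hypoxia-inducible factors bind the core letters ACGTG or GCGTG: that of BNIP3, which rose most, that of FUNDC1, which did not pass, and those of MAP1LC3B and CALCOCO2, the other members with a match. Windows of 250 bases directly upstream of the transcription start were taken from RefSeq (GRCh38.p14) and searched on both strands, and overlapping matches were merged into 1 site. A window was at hand for 8 of the 10 genes, all but BNIP3L and PINK1. Of these, 3 held at least 1 site (BNIP3, MAP1LC3B and CALCOCO2) and the other 5 held none. Of all 34941 windows, 43.2% held at least 1. That share counts windows, whereas members are counted as genes: SQSTM1 had 3 windows, and OPTN and PHB2 had 2 each. Each sequence is given on the strand of its gene, in lower case with the matched letters in capitals, CACGT and CACGC being the matches on the opposite strand. BNIP3 lies at chr10:131981924-131982173 on the minus strand, FUNDC1 at chrX:44542860-44543109 on the minus strand, MAP1LC3B at chr16:87392086-87392335 on the plus strand and CALCOCO2 at chr17:48830785-48831034 on the plus strand.
BNIP3: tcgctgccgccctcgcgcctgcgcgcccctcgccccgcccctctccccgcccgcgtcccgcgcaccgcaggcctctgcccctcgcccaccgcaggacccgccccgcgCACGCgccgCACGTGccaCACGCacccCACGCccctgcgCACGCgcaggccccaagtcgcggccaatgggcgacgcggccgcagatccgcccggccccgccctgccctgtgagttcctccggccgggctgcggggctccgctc
FUNDC1: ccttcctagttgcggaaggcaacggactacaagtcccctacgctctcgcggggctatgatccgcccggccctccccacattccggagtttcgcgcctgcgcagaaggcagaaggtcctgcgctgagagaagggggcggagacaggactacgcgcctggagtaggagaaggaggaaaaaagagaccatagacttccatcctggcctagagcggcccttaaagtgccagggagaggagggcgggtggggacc
MAP1LC3B: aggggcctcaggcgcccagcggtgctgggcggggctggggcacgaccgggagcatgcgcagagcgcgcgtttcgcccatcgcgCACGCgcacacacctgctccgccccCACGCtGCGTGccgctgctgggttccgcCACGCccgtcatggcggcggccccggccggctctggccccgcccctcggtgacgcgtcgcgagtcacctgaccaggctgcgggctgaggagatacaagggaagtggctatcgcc
CALCOCO2: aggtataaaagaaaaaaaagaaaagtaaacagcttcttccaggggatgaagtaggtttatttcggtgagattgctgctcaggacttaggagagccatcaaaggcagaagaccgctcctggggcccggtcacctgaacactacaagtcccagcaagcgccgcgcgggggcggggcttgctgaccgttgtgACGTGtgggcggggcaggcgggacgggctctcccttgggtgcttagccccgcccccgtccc

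The BNIP3 window held 5 sites between positions -143 and -100 from the start, a number reached by 0.627% of all windows. At positions -134 to -129 the match was CACGTG, which reads the same on both strands and is also an E-box, a motif that other factors bind. It was present in 6.32% of all windows. The MAP1LC3B window held 4 sites between positions -167 and -110, and 5.53% of all windows held at least 3. CALCOCO2 had 1 site, at positions -61 to -57. The FUNDC1 window had no match, nor did those of SQSTM1, OPTN, GABARAPL1 and PHB2. The windows behind these shares were not matched for GC content. A match describes the letters alone, and binding was not measured in these libraries.

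The 4 genes of the ubiquitin-dependent route were all called higher, each with a smaller change than BNIP3 or BNIP3L. Of all genes tested, 21.7% were called higher. For PINK1 and CALCOCO2 the call was lost when certain single libraries were left out. SQSTM1 (chromosome 5, 179806398 to 179838078) encodes p62, the adaptor that binds ubiquitin chains and LC3 and is itself degraded by autophagy. It was the most abundant of the 10 genes, at 1058, 1018 and 1030.3 TPM with vehicle and at 1493, 1463 and 1474 TPM with PDBAG1. Libraries of a group differed by little, and the gap between the groups was 405 TPM. The mean rose from 1036 ± 20.3 to 1477 ± 15.2 TPM (SD, n = 3 each), 1.43-fold (log2 fold change 0.51, SE 0.03, adjusted p = 5.15e-08 by limma). OPTN (chromosome 10, 13099449 to 13138308) encodes optineurin, an adaptor whose affinity for ubiquitin is raised by the kinase TBK1. Its values were 79.3, 74.4 and 72.4 TPM with vehicle and 104, 108 and 109 TPM with PDBAG1. OPTN rose 1.42-fold (log2 fold change 0.50, SE 0.05, adjusted p = 2.89e-06 by limma). SQSTM1 and OPTN kept nearly the same proportion, 13.3 to 14.2 SQSTM1 transcripts per OPTN transcript with vehicle and 13.5 to 14.3 with PDBAG1, with overlapping ranges.

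PINK1 and CALCOCO2 differed far less between the groups. PINK1 (chromosome 1, 20633458 to 20651511), the kinase that starts this route, was at 64.4, 63.0 and 62.3 TPM with vehicle and at 68.3, 69.7 and 72.4 TPM with PDBAG1. The groups did not overlap, but the gap between them was 3.9 TPM. PINK1 rose 1.11-fold (log2 fold change 0.15, SE 0.05, adjusted p = 0.0233 by limma). This call was lost without vehicle replicate 2 (adjusted p = 0.0709), without vehicle replicate 3 (0.092), without PDBAG1 replicate 2 (0.0626) and without PDBAG1 replicate 3 (0.0743), where the log2 fold change was 0.12 to 0.15, and it was also lost after removal of trends with transcript length and GC content (log2 fold change 0.05, adjusted p = 0.202), a setting chosen after the data were seen. An antisense gene, PINK1-AS, overlaps PINK1 on the opposite strand, and whether the counting used strand is not given in the sources used here. CALCOCO2 (chromosome 17, 48831018 to 48866522) encodes NDP52, an adaptor for damaged mitochondria and for intracellular bacteria. It was at 76.9, 73.6 and 76.1 TPM with vehicle and at 79.8, 88.1 and 87.7 TPM with PDBAG1, so that PDBAG1 replicate 1 lay close to the vehicle libraries. Its log2 fold change was 0.17 (SE 0.05, adjusted p = 0.0158 by limma), and the call was lost without vehicle replicate 2 (0.15, adjusted p = 0.0674) or without PDBAG1 replicate 2 (0.15, adjusted p = 0.0777).

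**Figure D2:**
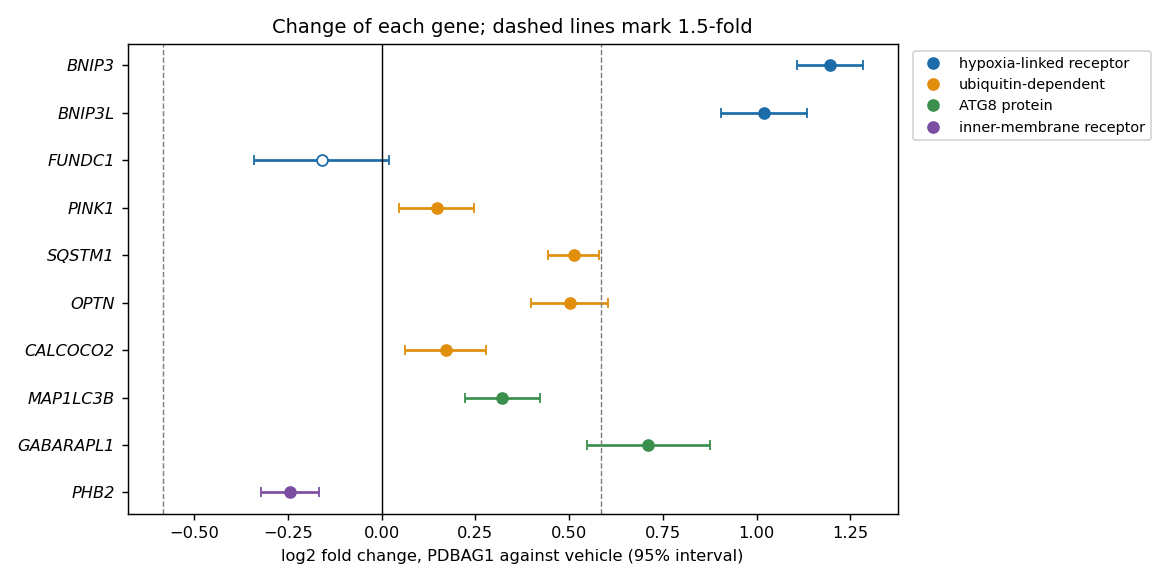
Log2 fold change of each gene between PDBAG1 and vehicle with its 95% interval from limma, coloured by role, with an open point for the gene that did not pass and dashed lines at a 1.5-fold change. BNIP3 and BNIP3L lie at 1.20 and 1.02, the ubiquitin-dependent genes between 0.15 and 0.51, and FUNDC1 and PHB2 lie left of 0.

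Set side by side, the hypoxia-linked receptors had log2 fold changes of 1.20, 1.02 and -0.16, and the ubiquitin-dependent genes of 0.15, 0.51, 0.50 and 0.17. The medians were 1.02 and 0.34. Within each library, the mean log2 level of BNIP3, BNIP3L and FUNDC1 minus that of PINK1, SQSTM1, OPTN and CALCOCO2 was -1.34 to -1.12 with vehicle and -0.90 to -0.83 with PDBAG1. The shift between the groups was 0.35, and it was 0.77 with FUNDC1 left out, a choice made after its value was seen. The size of this contrast therefore rested on whether FUNDC1 was counted among the hypoxia-linked receptors. In single genes, BNIP3 transcripts outnumbered those of PINK1 by 2.79 to 3.00 with vehicle and by 5.62 to 6.34 with PDBAG1, and the ratio of BNIP3L to PINK1 moved from 0.666 to 0.739 up to 1.26 to 1.31. SQSTM1 per PINK1 moved from 16.2 to 16.5 up to 20.4 to 21.9. The ratio of FUNDC1 to PINK1 overlapped between the groups, at 0.345 to 0.437 and 0.288 to 0.351.

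**Figure D3:**
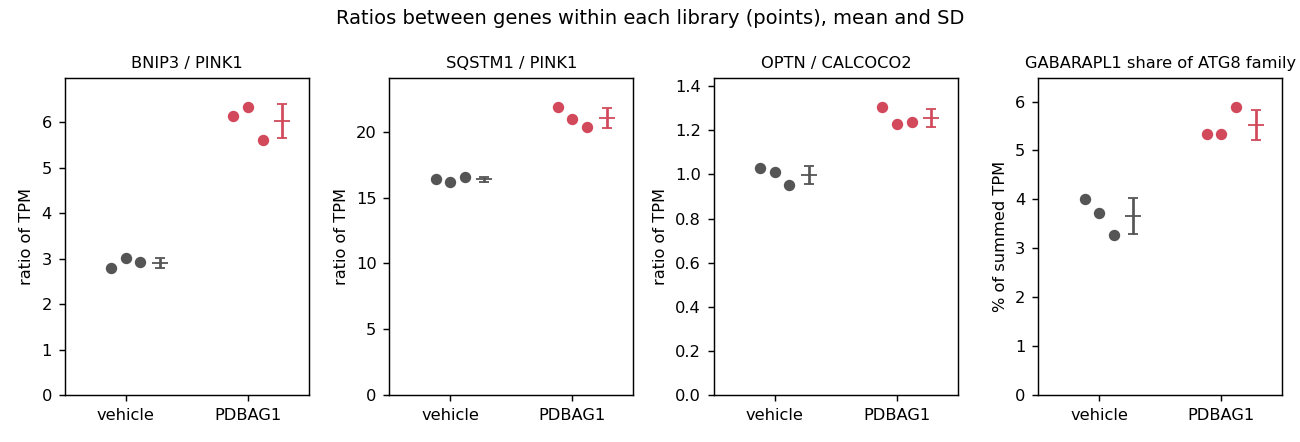
Ratios of TPM between genes and the GABARAPL1 share of the ATG8 family, one point per library, vehicle in grey and PDBAG1 in red, with mean and SD of 3 libraries and axes from 0. The groups are apart in all 4 panels, from 2.79 to 3.00 against 5.62 to 6.34 for BNIP3 over PINK1 and from 0.952 to 1.03 against 1.23 to 1.30 for OPTN over CALCOCO2.

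Both ATG8 genes among the members rose. ATG8 proteins are conjugated to the lipid of the autophagosomal membrane, where receptors and adaptors dock. GABARAPL1 (chromosome 12, 10212458 to 10223128) was the least abundant of the 10 genes with vehicle, at 22.4, 21.0 and 18.1 TPM, and was at 34.0, 32.2 and 36.2 TPM with PDBAG1. The lowest PDBAG1 library lay 9.80 TPM above the highest vehicle library. The mean rose from 20.5 ± 2.16 to 34.1 ± 2.00 TPM (SD, n = 3 each), 1.66-fold (log2 fold change 0.71, SE 0.08, adjusted p = 9.45e-06 by limma). MAP1LC3B (chromosome 16, 87383953 to 87404779), which encodes LC3B, the usual marker protein of autophagosomes, was at 107, 106 and 98.4 TPM with vehicle and at 131, 126 and 133 TPM with PDBAG1. Its rise was smaller, 1.25-fold (log2 fold change 0.32, SE 0.05, adjusted p = 0.000128 by limma). MAP1LC3B2 is a near-identical copy of MAP1LC3B to which reads could be assigned wrongly. It was listed at 2.33, 2.50 and 4.70 TPM with vehicle and at 3.20, 5.33 and 5.29 TPM with PDBAG1 and did not pass (adjusted p = 0.0877 by limma), although it did without vehicle replicate 3 (adjusted p = 0.00671) or PDBAG1 replicate 1 (0.0097). The sum of both genes was 103 to 109.8 TPM with vehicle and 132 to 138 TPM with PDBAG1.

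Of the 7 genes of the ATG8 family, 6 were tested, and 3 of them rose: GABARAPL1, MAP1LC3B and MAP1LC3A, the last from 13.2 to 18.3 TPM (log2 fold change 0.43, adjusted p = 0.00139 by limma). The first and the second of these are members already counted above. None fell, the median was 0.38, and 50% were called against 37.6% over all genes tested. Outside the members MAP1LC3A alone passed, so the share called in the family rested largely on members. GABARAP, the most abundant of the family, had means of 351 and 362 TPM (log2 fold change 0.04, adjusted p = 0.392 by limma), GABARAPL2 had means of 66.6 and 68.3 TPM (log2 fold change 0.04, adjusted p = 0.589 by limma), and MAP1LC3C was below the filter. With length and GC trends removed, GABARAP (0.09, adjusted p = 0.0479) and GABARAPL2 (0.13, adjusted p = 0.0291) passed as well. The family summed to 554 to 566 TPM with vehicle and 603 to 637 TPM with PDBAG1. Within that sum, GABARAPL1 held 3.28% to 4.01% with vehicle and 5.33% to 5.88% with PDBAG1, MAP1LC3B held 17.8% to 19.3% and 20.6% to 21.6%, and GABARAP held 61.4% to 64.3% and 57.5% to 59.3%. None of these ranges overlapped between the groups.

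PHB2 (chromosome 12, 6965327 to 6970780), prohibitin 2, is an inner-membrane scaffold protein that becomes a mitophagy receptor once the outer membrane has ruptured. It was the 1 gene of the 10 that fell. Its values were 425, 431 and 445 TPM with vehicle and 376, 362 and 361 TPM with PDBAG1. The highest PDBAG1 library lay 49.4 TPM below the lowest vehicle library. The mean fell from 434 ± 10.1 to 366 ± 8.34 TPM (SD, n = 3 each), to 0.844 of the vehicle mean (log2 fold change -0.24, SE 0.04, adjusted p = 0.000158 by limma). Its partner in the prohibitin ring, PHB1 (listed as PHB), fell alongside from 329 to 283 TPM (log2 fold change -0.22, adjusted p = 0.000362 by limma), and the ratio of PHB2 to PHB1 overlapped between the groups, at 1.30 to 1.33 with vehicle and 1.28 to 1.31 with PDBAG1.

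These changes altered the order of the levels. With vehicle it ran from SQSTM1 through PHB2, BNIP3, MAP1LC3B, CALCOCO2, OPTN, PINK1, BNIP3L and FUNDC1 to GABARAPL1. Neighbours in that order were separated in all libraries except CALCOCO2 and OPTN, with means of 75.5 and 75.35 TPM, and FUNDC1 and GABARAPL1, with means of 25.0 and 20.5 TPM. With PDBAG1, BNIP3 stood above PHB2, OPTN and BNIP3L stood above CALCOCO2, and GABARAPL1 stood above FUNDC1. In that group only BNIP3L and CALCOCO2 overlapped among neighbours, with means of 89.6 and 85.2 TPM. OPTN per CALCOCO2 transcript moved from 0.952 to 1.03 up to 1.23 to 1.30.

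**Figure D4:**
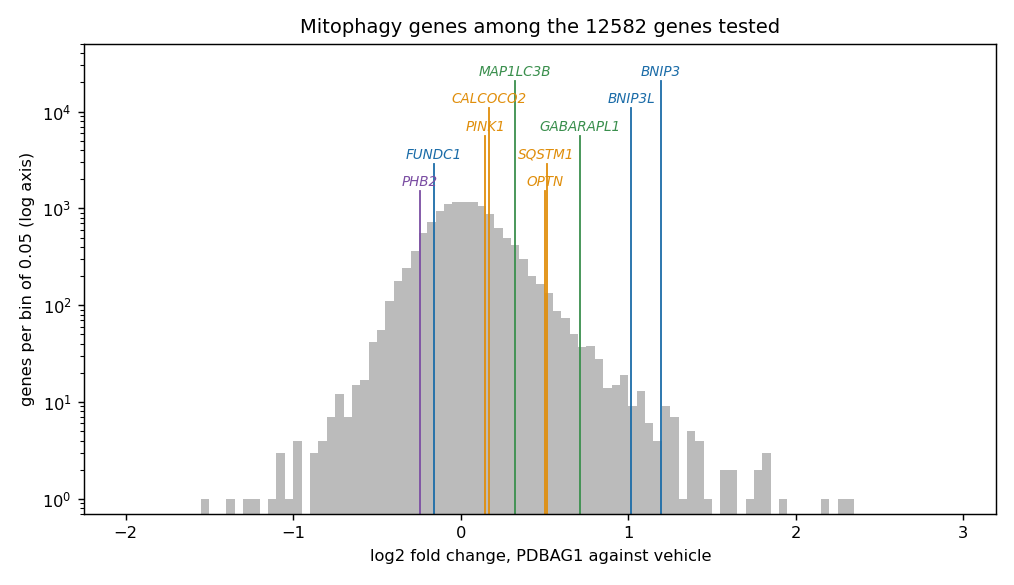
Histogram of log2 fold changes between PDBAG1 and vehicle over the 12582 genes tested, in bins of 0.05 with a log count axis, with a line at the value of each of the 10 genes. BNIP3 and BNIP3L lie in the sparse upper tail, number 42 and number 71 from the top, while PINK1 and CALCOCO2 lie in the bulk, at number 3711 and number 3291.

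The other genes of the pathway were taken from 9 lists written from general knowledge. Earlier results of these data were known when these lists were written. They held 120 genes beside the members, of which 118 were tested, and 39 of these rose and 14 fell, 44.9% in all against 37.6% of all genes tested (21.7% higher and 15.9% lower). These counts moved with the scaling, to 34 higher and 21 lower under median-of-ratios scaling and to 38 higher and 19 lower under quantile normalization. The list closest to PINK1 covered its import and its cleavage. In healthy mitochondria PINK1 enters through the TOM and TIM23 complexes, is cut by the protease PARL and is then degraded, whereas on damaged mitochondria it stays bound to the TOM complex. Of the 14 genes tested in this list, 8 fell and none rose, with a median log2 fold change of -0.18, where 15.9% of all genes tested fell and 21.7% rose. PGAM5, a mitochondrial phosphatase, fell from 65.9 to 51.1 TPM (log2 fold change -0.36, adjusted p = 0.00015 by limma), TOMM22, a receptor of the TOM complex, from 90.1 to 70.3 TPM (-0.35, adjusted p = 0.000183), and TOMM40, its channel, from 224 to 186 TPM (-0.27, adjusted p = 0.0003). TOMM70, TIMM23, TIMM17A, AFG3L2 and PARL, named after their values were seen, made up the rest of the falls, with log2 fold changes of -0.15 to -0.26. The call of AFG3L2 was lost in 4 of the 6 fits that left out 1 library (without vehicle replicate 1 or 3 or PDBAG1 replicate 1 or 2, adjusted p of 0.0689 to 0.184), and without the expression filter (0.0677). TOMM7, the small subunit that holds PINK1 on the TOM complex, had means of 236 and 221 TPM (log2 fold change -0.09, adjusted p = 0.193 by limma).

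Ubiquitin-binding adaptors outside the members were 4 in number, and 2 of them rose (median log2 fold change 0.14), 50% called against 37.6% over all genes tested. TAX1BP1, an adaptor related to CALCOCO2, rose from 90.6 to 109.8 TPM (log2 fold change 0.27, adjusted p = 0.00116 by limma) and NBR1, which resembles SQSTM1, from 85.3 to 97.5 TPM (0.19, adjusted p = 0.0105), a call that was lost without vehicle replicate 3 (0.17, adjusted p = 0.0512). Among 12 other proteins described as mitophagy receptors or their helpers, 5 rose and 1, PHB1, fell (median log2 fold change 0.13), 50% against 37.6% over all genes tested. MCL1, an antiapoptotic relative of BCL2, rose most, from 141 to 249 TPM (log2 fold change 0.81, adjusted p = 1.07e-08 by limma), followed by AMBRA1, an autophagy scaffold (0.35, adjusted p = 0.00218), and the ubiquitin ligase SMURF1 (0.30, adjusted p = 0.00355). The receptor BCL2L13 and FUNDC2, the paralogue of FUNDC1, did not pass, with log2 fold changes of 0.08 and -0.03.

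Of 14 ligases, deubiquitinases and their regulators, 3 rose and none fell, 21.4% against the 37.6% called over all genes tested, with a median log2 fold change of 0.05. USP35, a deubiquitinase, and CLEC16A, an endosomal regulator of mitophagy, both had a log2 fold change of 0.32 (adjusted p = 0.00363 and 0.00847 by limma). FBXL4, part of a ligase that keeps BNIP3 and BNIP3L proteins low, had a log2 fold change of 0.21 (adjusted p = 0.0468 by limma), and its call was lost in 5 of the 6 fits that left out 1 library, all but that without PDBAG1 replicate 1 (adjusted p = 0.0757 without vehicle replicate 1, 0.0973 and 0.121 without vehicle replicates 2 and 3, 0.203 and 0.0943 without PDBAG1 replicates 2 and 3). It was also lost without the expression filter (0.0824), under both other scalings (0.0536 and 0.125) and with length and GC trends removed (0.136). PPTC7, which works with FBXL4 on the same receptors, had a log2 fold change of 0.05 (adjusted p = 0.642 by limma). Of 12 outer-membrane proteins known to be ubiquitinated during mitophagy, 3 rose and 2 fell, 41.7% against 37.6% over all genes tested, and the median was 0.003. Those that rose most were the hexokinases HK2, from 17.0 to 31.9 TPM (log2 fold change 0.87, adjusted p = 2.42e-07 by limma), and HK1 (0.66, adjusted p = 8.36e-08), while the iron-sulphur protein CISD1 fell (-0.26, adjusted p = 0.00145). The mitofusins MFN1 and MFN2 did not pass, with log2 fold changes of 0.03 and -0.11, but MFN2 did under median-of-ratios scaling (-0.15, adjusted p = 0.0102), quantile normalization (-0.12, 0.0341), with length and GC trends removed (-0.21, 0.000675) and without PDBAG1 replicate 3 (-0.15, 0.0475).

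Among 8 kinases or kinase subunits that act on the receptors, 3 rose and none fell (median log2 fold change 0.09), 37.5% called against 37.6% over all genes tested. ULK1, which starts autophagosome formation and phosphorylates FUNDC1, rose from 9.23 to 16.2 TPM (log2 fold change 0.75, adjusted p = 5.46e-06 by limma). PRKAA2, a catalytic subunit of the energy sensor AMPK, had a log2 fold change of 0.37 (adjusted p = 0.00506), and SRC, which phosphorylates FUNDC1, one of 0.32 (adjusted p = 0.00111). PRKAA1, another catalytic subunit of AMPK, was more abundant than PRKAA2 and hardly differed, with means of 59.0 TPM with vehicle and 58.35 TPM with PDBAG1. TBK1, the kinase of OPTN, was at 29.8 to 34.3 TPM with vehicle and 32.0 to 36.8 TPM with PDBAG1 and did not pass (log2 fold change 0.12, adjusted p = 0.215 by limma), although it did without PDBAG1 replicate 1 (0.18, adjusted p = 0.0475) and with length and GC trends removed (0.13, adjusted p = 0.0456).

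Of the 27 genes of the core machinery that builds autophagosomes, 11 rose and 2 fell (median log2 fold change 0.09), 48.1% called against 37.6% over all genes tested, of which 21.7% rose and 15.9% fell. ULK1 led, followed by the lipid transfer protein ATG2A, from 16.3 to 25.2 TPM (log2 fold change 0.60, adjusted p = 1.41e-05 by limma), and the phosphoinositide-binding protein WIPI1, from 58.2 to 87.1 TPM (0.57, adjusted p = 8.42e-07). Picked after their values were seen, ATG13 and RB1CC1, which form a complex with ULK1, had log2 fold changes of 0.36 and 0.52, and ATG9A, the membrane scramblase, one of 0.37, all past the threshold. The 2 genes that fell belong to the conjugation of ATG8 proteins to lipid: ATG3, from 122 to 103 TPM (log2 fold change -0.24, adjusted p = 0.000494 by limma), and ATG5, from 50.1 to 44.1 TPM (-0.18, adjusted p = 0.0312). The call of ATG5 was lost without vehicle replicate 1 (-0.12, adjusted p = 0.121), without PDBAG1 replicate 1 (-0.14, 0.0948) and without the expression filter (0.0639). ATG7, ATG10, ATG12 and ATG16L1 of the same system had log2 fold changes of -0.07 to 0.04 and did not pass. In the list of lysosomal genes and the TFEB axis, the end point of the pathway, 12 of 24 genes rose and 1 fell (median log2 fold change 0.15), 54.2% called against 37.6% over all genes tested. PLEKHM1, an adaptor for fusion of autophagosomes with lysosomes, rose from 31.8 to 50.1 TPM (log2 fold change 0.64, adjusted p = 8.11e-07 by limma) and the sialidase NEU1 from 34.2 to 52.8 TPM (0.61, adjusted p = 8.3e-07). MITF, a transcription factor related to TFEB, fell from 15.5 to 12.3 TPM (-0.32, adjusted p = 0.0131), a call lost without PDBAG1 replicate 2 (-0.23, adjusted p = 0.0775) and without the expression filter (adjusted p = 0.0503). TFEB itself had means of 2.89 and 3.39 TPM and did not pass (adjusted p = 0.235 by limma).

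**Figure D5:**
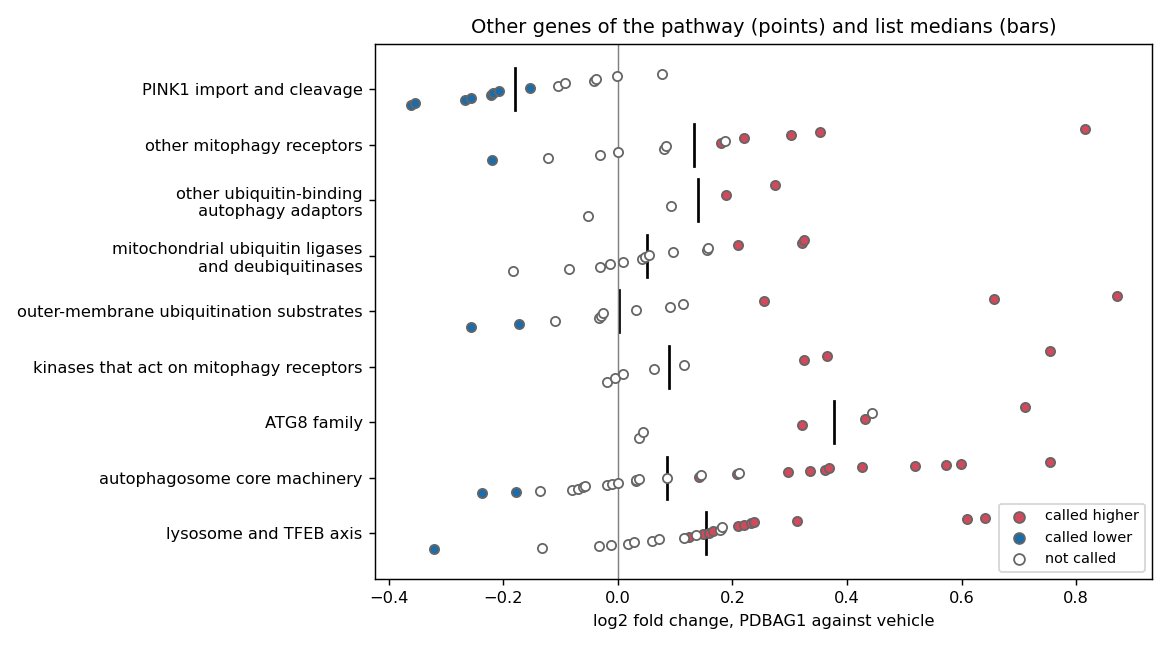
Log2 fold changes of the tested genes in 9 lists of the wider pathway, one point per gene, red for genes that rose, blue for genes that fell and white for genes that did not pass, with a black bar at each list's median. In the list on PINK1 import and cleavage no gene rose and 8 fell, whereas 11 of 27 core autophagy genes rose and 2 fell.

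The genes whose pattern over the 6 libraries was most like that of BNIP3, by Pearson's r of log2(TPM + 1), were BDKRB2 (0.9997), AMPD3 (0.9993), NDRG1 (0.9989), LDHA (0.9988) and PGK1 (0.9987). AMPD3, an AMP deaminase, matched BNIP3 in size as well, rising from 14.3 to 34.0 TPM with a log2 fold change of 1.19, whereas LDHA, the subunit of lactate dehydrogenase, had one of 0.54. BDKRB2, a bradykinin receptor, was at 0.40 to 0.48 TPM with vehicle and 2.13 to 2.31 TPM with PDBAG1. It passed the filter on low values through the PDBAG1 libraries alone. Its log2 fold change was 1.15, and 2.07 where 0.1 instead of 1 was added to TPM. The genes most like PINK1 were MAP3K15 (0.9984), ARMC2 (0.9983), CAMK2N1 (0.998), CLSTN1 (0.9967) and LIX1L (0.9962), with log2 fold changes of 0.28 to 0.54, all larger than that of PINK1. The 6 libraries fall into 2 groups, so that any gene with a clear difference between the groups correlates: 1043 genes exceeded 0.95 with BNIP3 and 993 with PINK1. These values are a description over 6 libraries.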

How the data were processed

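RNA-seq libraries of MDA-MB-231 cells (3 vehicle, 3 PDBAG1) were grouped by the sample labels. The authors deposited TPM for 17631 genes, rounded to 2 decimals. The submitters' processing notes list HISAT2 2.0.4, Bowtie2 2.2.5, RSEM 1.2.12 and GRCh38.p12; the study's methods describe HISAT2, another patch of GRCh38 and FPKM, and the annotation release is not given in the sources used here. TPM keeps no depth, so counting error is unknown and precision rests on 3 libraries per group.

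The 12582 genes that reached 1 TPM in 3 or more of the libraries were compared as log2(TPM + 1) with limma 3.58.1 in R 4.3.3 (lmFit, eBayes with trend) and a gene was called where p, after Benjamini-Hochberg adjustment over the whole table, was under 0.05; fold changes on this scale understate those of low genes. The code was tested on simulated data. Positions come from GENCODE v44, matched by Ensembl identifier for 17212 genes.

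Members and lists were chosen with earlier results of these data known. Named by rule were the 10 members, up to 3 called genes per list with the largest change and no overlap between groups, and the 5 genes most like BNIP3 and PINK1; other genes named were chosen after their values were seen. The level of 1 gene in the lists, below the expression filter, is not reported here. Alternatives were no filter, a stricter filter of 1 TPM in all libraries, the replicate number as a block, a smaller pseudocount (0.1), each library left out, a 1.5-fold limit, median-of-ratios scaling and quantile normalization, and, chosen after the data were seen, removal of trends with transcript length and GC content (12433 genes with both) and the contrast without FUNDC1.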

Additional observations from a re-analysis of the deposited data

How the results depend on the processing

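BNIP3, BNIP3L, SQSTM1, OPTN, MAP1LC3B, GABARAPL1 and PHB2 kept their direction and call in all 13 alternatives each, with BNIP3 at 1.15 to 1.27, BNIP3L at 0.98 to 1.06 and PHB2 at -0.29 to -0.23 (log2). Over all 71 genes named with a test, 861 of 922 values kept direction and call, 32 lost the call, 12 gained it and 17 changed sign. Every change of sign was in a gene that had not passed and did not pass then either: MFN1 (-0.0096, -0.0032 and -0.012), ATG7 (-0.0081, -0.0073 and -0.0656) under quantile normalization (middle value), after median-of-ratios scaling (left) and with length and GC trends removed (right), ATG12 (-0.0044 and -0.0013) under the scalings, GABARAPL2 (-0.0037) under median-of-ratios scaling and TOMM7 (0.0122) with trends removed. With 1 library left out, ULK2 ranged from -0.0577 to 0.0118, PPTC7 from -0.0258 to 0.0969, GABARAPL2 from -0.0052 to 0.0695, ATG10 from -0.1153 to 0.0102 and MFN1 from -0.0009 to 0.0734. With the 1.5-fold limit, 420 genes were called (360 higher, 60 lower), with 3 members higher and 0 lower. Over the fits that left out 1 library, 6 to 8 members were called higher and 1 to 2 lower, the second being FUNDC1 without vehicle replicate 1. In the same fits, 2013 to 2882 of the 12582 genes tested were called higher and 1501 to 2073 lower. After removal of length and GC trends, chosen after the data were seen, 3142 genes were called lower, and the shift of the hypoxia-linked against the ubiquitin-dependent genes was 0.46, against 0.35 in the comparison as reported. It was 0.30 to 0.41 with 1 library left out and 0.77 without FUNDC1. The share of calls that were higher was 57.8%, but 47.2% under median-of-ratios scaling, 46.7% under quantile normalization and 43.9% with length and GC trends removed. The cause was not tested. Fitted with a block for the replicate number, 2313 genes were higher and 1638 lower, and the calls of PINK1 (log2 fold change 0.15, adjusted p = 0.0743), FBXL4 (0.21, 0.11), AFG3L2 (-0.15, 0.0829) and ATG5 (-0.18, 0.0674) were lost and that of MAP1LC3B2 was gained (0.44, 0.0176), with no other named call changed. The labels give these numbers no shared origin, and deviations from the group means correlated at -0.21, 0.01 and -0.08 between libraries of the same number. Because TPM keeps no depth, tests on counts were not run.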

Other observations

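Paralogues of the core autophagy machinery differed in how they moved, as seen after the values were known. ULK1 rose with PDBAG1, whereas ULK2, the related kinase, was at 1.57 to 1.83 TPM with vehicle and 1.60 to 1.79 TPM with PDBAG1 (log2 fold change -0.02, adjusted p = 0.907 by limma). The ratio of ULK1 to ULK2 was 4.80 to 5.73 with vehicle and 8.53 to 10.4 with PDBAG1. WIPI1 and WIPI2, which both bind phosphoinositides on the forming autophagosome, both rose, WIPI2 by a log2 fold change of 0.21 (adjusted p = 0.00556 by limma) against 0.57 for WIPI1. The call of WIPI2 was lost with length and GC trends removed (0.10, adjusted p = 0.0651). The ratio of WIPI1 to WIPI2 was 1.63 to 1.71 with vehicle and 2.09 to 2.23 with PDBAG1, without overlap.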
